A study of Mus musculus with 2 samples.

Results

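Dividing nuclei were sought in the neonatal mouse cochlea at postnatal day 7, in single-nucleus RNA sequencing of a Serpine2 cOE library and a control library. A nucleus counted as dividing when it held at least 1 UMI (unique molecular identifier, 1 counted RNA molecule) of at least 3 of 10 genes, Top2a, Mki67, Prc1, Cenpf, Cenpe, Kif11, Kif15, Aurkb, Bub1 and Knl1. These genes are called the gate below. Among nuclei with at least 500 genes, at most 5% mitochondrial UMIs and at most 12000 UMIs, 74 of 19128 met the gate, 32 of 10448 in Serpine2 cOE and 42 of 8680 in control. The deposited matrices held 21834 barcodes in all, 12014 in Serpine2 cOE and 9820 in control.

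The Serpine2 cOE library came from 20 pooled cochleae of mice carrying Lgr5EGFP-CreER on 1 allele and Serpine2loxp on both alleles. The control library came from 19 pooled cochleae of Serpine2loxp/loxp mice without the driver. Both groups received tamoxifen at postnatal day 1, and both carried the Serpine2loxp alleles. What the loxP sites flank is not given in the sources used here. The driver places CreER under Lgr5, a gene of a subset of supporting cells, so recombination was directed to those cells, and an effect of the driver allele and an effect of Serpine2 cannot be told apart. What the recombined allele encodes is not given in the sources used here. Each group was 1 library, so no difference below has a replicate check, no test was run, and every interval is an exact 95% interval that covers counting error only.

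Cells that divide switch on genes in waves. DNA replication genes are transcribed before and during S phase, and genes for chromosome condensation, the spindle and the cut between daughter cells follow in G2 phase and mitosis. Many of the late genes are held off in resting cells by the DREAM complex, whose MuvB core binds a promoter motif named CHR, and are driven in cycling cells by B-MYB and FOXM1, often with the CCAAT-binding factor NF-Y. In the mammalian cochlea the hair cells and their supporting cells leave the cell cycle before birth, held there by inhibitors such as p27 (Cdkn1b), whereas connective tissue cells and tissue macrophages can go on dividing after birth.

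Promoters of 4 gate genes are shown as examples of these motifs, chosen because each holds the CHR letters in the stretch printed. The sequences are RefSeq promoters of build GRCm38.p6, each the 120 bases before the transcription start on the gene's own strand, and capitals mark TTTGAA (the CHR element), CCAAT (the NF-Y box) or their reverse complements TTCAAA and ATTGG.
Top2a (chr11:99024190-99024309, minus strand): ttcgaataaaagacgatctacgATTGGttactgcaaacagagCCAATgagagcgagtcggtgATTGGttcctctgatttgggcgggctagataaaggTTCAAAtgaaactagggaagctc
Kif11 (chr19:37376262-37376381, plus strand): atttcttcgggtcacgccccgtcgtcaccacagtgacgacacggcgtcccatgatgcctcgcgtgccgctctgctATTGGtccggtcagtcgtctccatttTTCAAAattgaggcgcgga
Kif15 (chr9:122950961-122951080, plus strand): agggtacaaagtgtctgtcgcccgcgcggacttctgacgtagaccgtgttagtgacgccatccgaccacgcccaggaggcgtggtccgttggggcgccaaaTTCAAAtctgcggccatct
Mki67 (chr7:135716380-135716499, minus strand): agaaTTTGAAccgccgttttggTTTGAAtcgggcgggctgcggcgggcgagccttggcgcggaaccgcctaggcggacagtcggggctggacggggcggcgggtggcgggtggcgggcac

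Top2a holds 3 NF-Y boxes and 1 CHR element in this stretch, with the CHR element starting at position -23 from the transcription start, and Kif11 and Kif15 each hold a CHR element starting at -19. Kif15 has no NF-Y box in these letters. Of the other 5 gate genes matched, Prc1 also holds TTTGAA before the start, Cenpf and Knl1 hold it only after the start (at positions 3 and 32), and Bub1 and Cenpe hold none in the window. Over the whole window of 250 bases before to 50 after the start, counting both strands, TTTGAA was found in 8 of the 10 promoters of the 9 gate genes matched (80%), in 39 of 57 promoters of 55 mitosis-list genes outside the gate (68.4%), in 6 of 40 promoters of 32 S phase genes (15%) and in 17.9% of all 32851 RefSeq promoters. CCAAT was found in 80% of gate promoters, 71.9% of mitosis-list promoters, 65% of S phase promoters and 37.4% of all promoters. The plain CHR letters were therefore about as frequent in S phase promoters as in all promoters, and the NF-Y letters were more frequent in each of the cell cycle lists than in all promoters. A match is a run of letters, not a shown binding site.

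**Figure D1:**
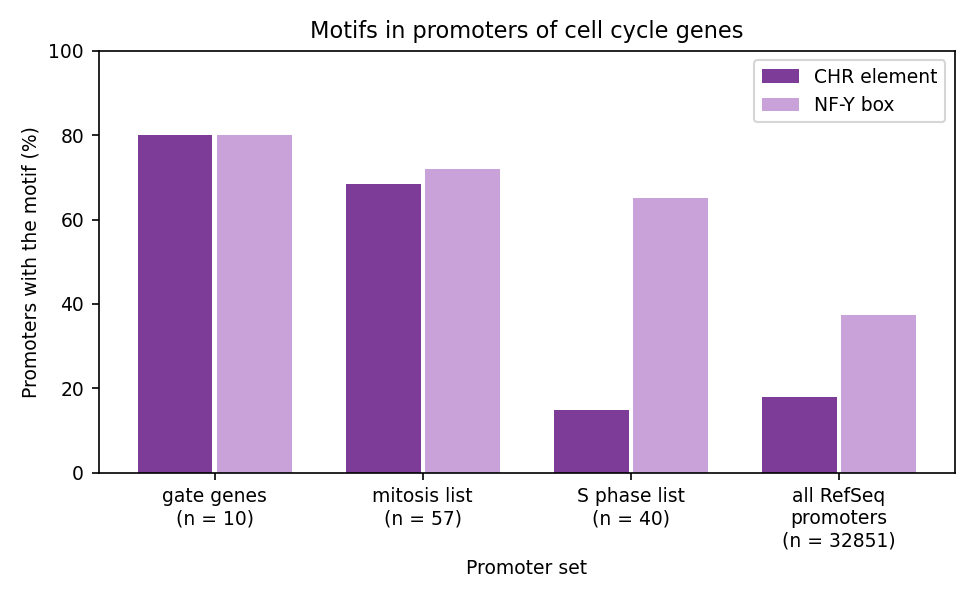
Percentage of RefSeq promoters (250 bases before to 50 after the start) with the CHR element TTTGAA (dark bars) or the NF-Y box CCAAT (light bars), on either strand, for gate genes, the mitosis list, the S phase list and all promoters. The CHR element stands at 80% and 68.4% in the first pair of sets and at 15% and 17.9% in the last pair.

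The gate genes themselves chose the nuclei, so their levels are a description. Top2a, which untangles DNA before chromosomes separate, was detected in 26 of 32 dividing nuclei in Serpine2 cOE and 31 of 42 in control, against 0.749% and 0.857% of the other nuclei. Prc1, which bundles the central spindle, was in 21 and 25 nuclei, and Knl1, the kinetochore scaffold that recruits Bub1, in 20 and 21. Mki67, the coat of mitotic chromosomes behind the Ki-67 antibody, was in 17 and 20. The kinesin Kif15 was in 16 and 23, Cenpf, a kinetochore and nuclear matrix protein of G2 phase, in 15 and 19, and the spindle kinesin Kif11 in 15 and 21. Cenpe, the kinetochore kinesin, was in 10 and 24 nuclei, the checkpoint kinase Bub1 in 8 and 10, and Aurkb, the kinase of the chromosomal passenger complex, in 6 and 13. No nucleus held all 10 genes, and 1 nucleus in Serpine2 cOE and 2 in control held 9. Just inside the threshold, 10 nuclei in Serpine2 cOE and 16 in control had 3 gate genes, and just outside it 96 and 98 nuclei had 2.

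The dividing nuclei were deeper than the rest. Their median was 5137 UMIs in Serpine2 cOE and 3351 in control, against 2455 and 2250.5 in the other nuclei, and their summed depth was 186417 and 167065 UMIs. Depth alone raises the chance of detecting 3 gate genes, so genes that the gate did not use were examined nucleus by nucleus. Between the libraries 27 barcodes were shared, 16 of them among the filtered nuclei and 0 among the dividing nuclei.

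Of a list of 66 other genes of G2 phase and mitosis, nuclei with 4 or more gate genes held a median of 20.5 in Serpine2 cOE (range 4 to 37) and 22 in control (4 to 51). Nuclei with exactly 3 gate genes held a median of 12.5 (3 to 26) and 7 (1 to 31). Nuclei with 2 gate genes had median depths of 4455 and 4883 UMIs. They held a median of 2 in each library (0 to 13 and 0 to 22). A median of 1 was found in nuclei with 1 gate gene and in those with none. At least 5 mitosis genes were present in 29 of the 32 dividing nuclei in Serpine2 cOE and 34 of the 42 in control. With 2 gate genes, 9 of 96 nuclei in Serpine2 cOE and 17 of 98 in control held at least 5. Nuclei with 2 gate genes, deeper than the dividing nuclei in control and somewhat shallower in Serpine2 cOE, thus mostly carried few other mitosis genes. Some of them held many, so the gate can miss dividing nuclei. Those with exactly 3 gate genes ranged over both patterns.

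**Figure D2:**
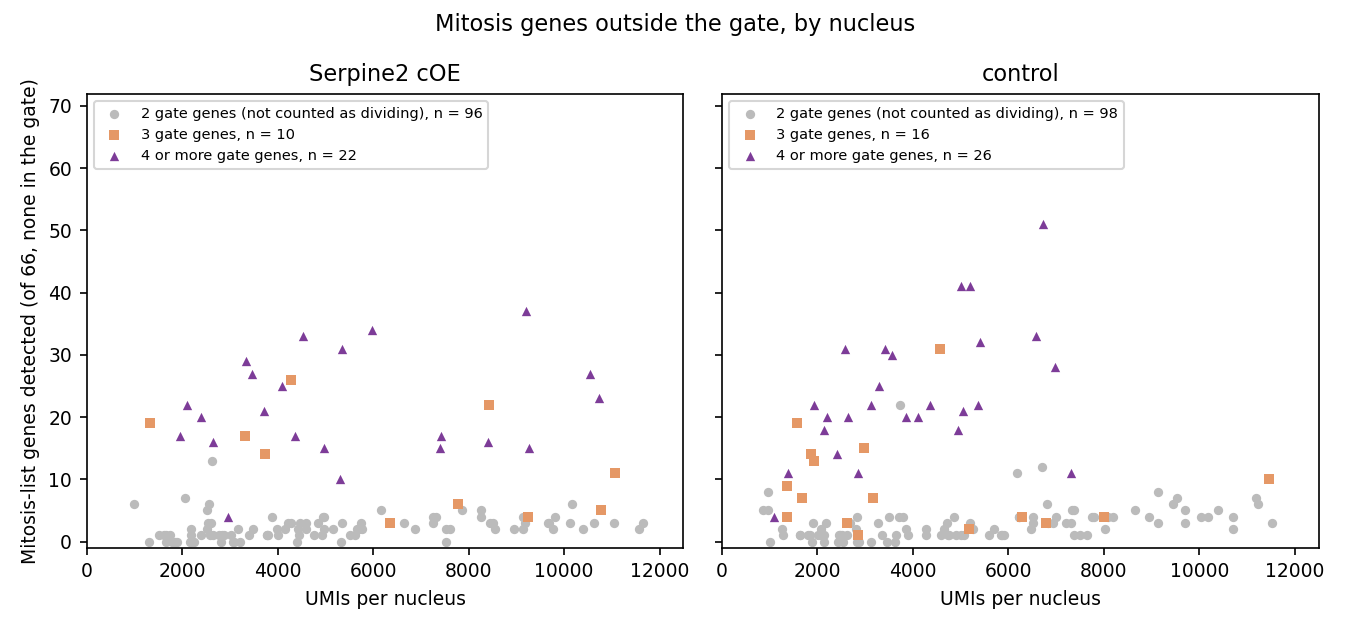
Each point is 1 nucleus, with its UMIs on the x axis and the number of 66 mitosis-list genes detected on the y axis, Serpine2 cOE on the left and control on the right. Nuclei with 4 or more gate genes (triangles) have medians of 20.5 and 22 genes, those with 3 (squares) 12.5 and 7, and those with 2 (grey circles, not counted as dividing) 2 in each library.

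Phase could be read only coarsely at this depth. More mitosis-list genes than S phase and DNA repair genes were detected in 51 of the 74 dividing nuclei, the opposite in 19, and equal numbers in 4. The gate consists of late cell cycle genes, so nuclei in early S phase could be missed, and the 3 lists differ in length (66 mitosis, 40 S phase and 18 repair genes).

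Levels of the mitosis list summed to 5000 CPM (UMIs scaled to the total of the same nuclei) in dividing nuclei of Serpine2 cOE and 7901 CPM in dividing nuclei of control, against 489 and 508 CPM in the other nuclei. Because a gene seen mainly in the dividing nuclei passes a filter on UMIs only if it is high there, genes were also chosen by at least 20 UMIs in the other nuclei of each library alone. Of 18056 genes chosen that way, 4.38% were at least 2-fold higher in dividing nuclei of both libraries. The same held for 49 of 51 mitosis genes, 29 of 37 S phase genes and 13 of 18 repair genes, for 2 of 13 genes of the DREAM and RB complexes and for 1 of 12 genes of cell cycle exit. Median log2 ratios of dividing nuclei over the rest were 4.25 in Serpine2 cOE and 4.48 in control for mitosis genes, 2.31 and 2.63 for S phase genes and 1.93 and 2.48 for repair genes. They were 0.32 and 0.68 for DREAM and RB genes and 0.14 and -0.07 for exit genes, against -0.11 and -0.18 over all genes. The machinery of replication and division was thus high in dividing nuclei of each library. Most genes of the DREAM and RB list and of the exit list were not at least 2-fold higher in both. These lists hold E2f3, the D cyclins and their kinases beside repressors and inhibitors, so their counts do not measure repression alone. The nuclei were chosen by 10 related genes, so these counts describe the nuclei.

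**Figure D3:**
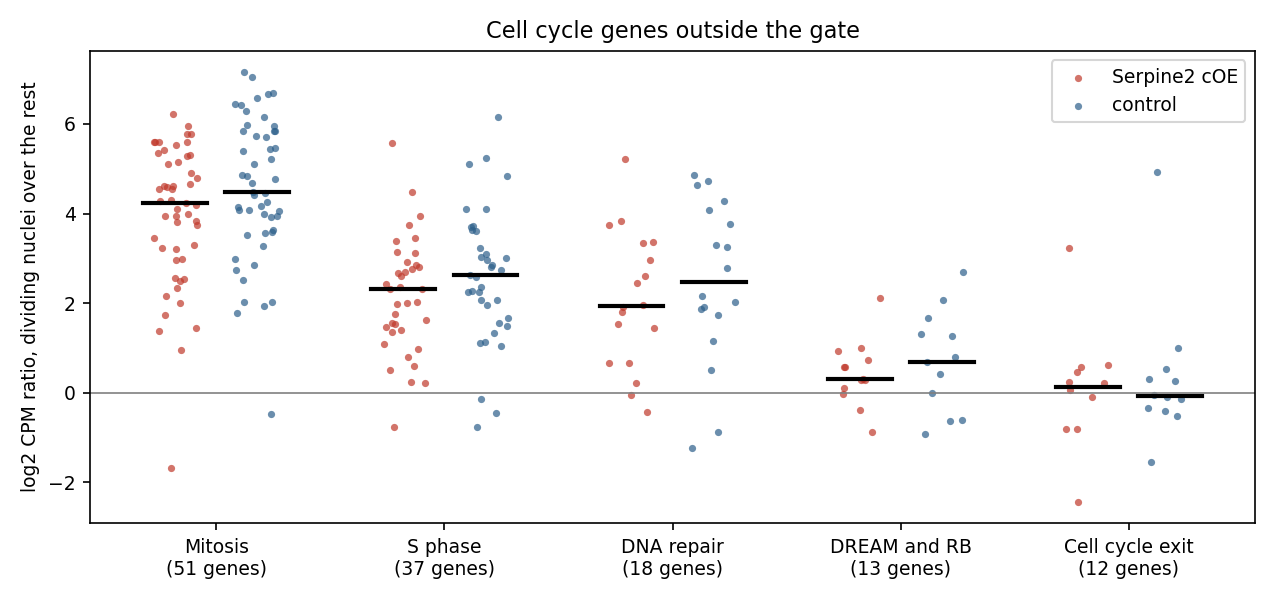
Each point is 1 gene, placed by its log2 ratio of CPM in dividing nuclei over CPM in the other nuclei, with Serpine2 cOE left of control within each list and the list median as a black line. Genes with no UMI in the dividing nuclei of a library are not drawn but count in the medians, which are 4.25 and 4.48 for mitosis genes and 0.14 and -0.07 for exit genes.

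Among mitosis genes, Diaph3, a formin that builds actin filaments at the cleavage furrow, had 49 UMIs in dividing nuclei of Serpine2 cOE and 92 in those of control, with log2 ratios over the rest of 5.43 (4.95 to 5.89) and 6.42 (6.03 to 6.80). Neil3, a DNA glycosylase made in S and G2 phase, had 48 and 63 UMIs and stood at 0.445 and 0.588 CPM in the other nuclei, giving ratios of 9.18 and 9.33. Ckap5, a microtubule polymerase that resting cells also use, had 56 and 69 UMIs and smaller ratios of 1.38 and 1.94. Hmgb2, a chromatin protein, had 35 and 81 UMIs and ratios of 1.44 and 2.75. Lower in UMIs were Plk4, the kinase of centriole duplication, with ratios of 2.49 and 2.99, and Hmmr, a spindle pole protein, with 6.30 and 6.86. The mitosis genes below 2-fold in at least 1 library, named after their values were seen, were Cks1b, a small subunit of cyclin-dependent kinases, with 1 and 2 UMIs (-1.69 and -0.48), and Lmnb1, lamin B1, with 0.94 and 2.03.

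Of the replication genes, Atad2, a chromatin ATPase of S phase, was detected in 18 of 32 dividing nuclei in Serpine2 cOE and 26 of 42 in control, with ratios of 3.94 and 4.10. Pola1, the catalytic subunit of DNA polymerase alpha, had ratios of 1.75 and 3.01, and Prim2, a primase subunit, 2.02 and 2.25. Slbp, which binds the stem-loop of histone mRNAs, had 0.80 and 1.12. Tyms, which makes thymidylate, had 2.32 and 3.23, and Lig1, which joins Okazaki fragments, 1.99 and 2.06. In the S phase list the clamp Pcna, a replication marker, had 8 and 2 UMIs and ratios of 1.54 and -0.14, and the helicase subunit Mcm7 0.52 and 1.95, both named after their values were seen. Of the repair genes, Brca1 had ratios of 3.35 and 4.64, its partner Bard1 3.37 and 4.73, the helicase Brip1 1.54 and 3.29, and Polq of end joining 2.61 and 2.79. Atr, the replication checkpoint kinase, had -0.05 and 0.52, with intervals that included 0.

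The genes of the DREAM and RB list and of the exit list differed one by one. Rbl1 (p107), an RB family member of cycling cells, had ratios of 2.12 (1.05 to 3.01) in Serpine2 cOE and 2.69 (1.76 to 3.48) in control. E2f3, an activator E2F, had 1.00 and 1.26, and these were the 2 genes of the DREAM and RB list at least 2-fold higher. Rb1 had 0.57 and 0.42, Lin52 of the MuvB core 0.57 and 0.68, and Tfdp2, a partner of E2F, -0.03 and -0.63. Lin9, another MuvB subunit, had 0.32 (-1.13 to 1.45) in Serpine2 cOE and 2.07 (1.25 to 2.78) in control, from 6 and 16 UMIs. Cdkn1b, the p27 inhibitor, had 25 and 11 UMIs and ratios of 0.46 (-0.17 to 1.03) and -0.34 (-1.35 to 0.50), and 10 of its 25 UMIs in Serpine2 cOE were in 1 nucleus. Cdkn1c (p57) was the exit gene at least 2-fold lower in both libraries, with 2 and 4 UMIs and ratios of -2.43 (-5.48 to -0.58) and -1.55 (-3.43 to -0.19). The exit gene at least 2-fold higher in both, named after its value was seen, was Cdkn2c (p18), with 2 and 6 UMIs and ratios of 3.23 and 4.93. Cdkn1a (p21) had 3 UMIs in each library, at ratios of -0.81 and -0.40. The D cyclins, which open G1 phase, had Ccnd1 at -0.81 and 0.27, Ccnd2 at 0.06 and 0.32 and Ccnd3 at 0.58 and -0.10, and their kinases Cdk4 and Cdk6 were at 0.24 and 1.00 and at -0.09 and -0.05. All of those D cyclin intervals included 0, and that of Cdk4 in control (0.15 to 1.72) did not, with 7 of its 15 UMIs in 1 nucleus.

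Across all genes with at least 20 UMIs expected or observed in the dividing nuclei, 193 of 4800 (4.02%) were at least 2-fold higher in dividing nuclei of both libraries and 43 (0.896%) at least 2-fold lower. Of the 193, 62 were gate or cell cycle list genes and 131 were outside those lists, and 99 of the 131 were also at least 2-fold above the other nuclei of the same clusters. Most of the 193 (179) entered through their UMIs in the dividing nuclei, so the number has no use as support. The 10 outside the lists with the largest ratios included Troap, a spindle protein, which had 11 UMIs in 9 dividing nuclei of Serpine2 cOE and 10 in 7 of control against 4 and 4 UMIs in all other nuclei, with ratios of 8.86 and 8.48. Cep55, which recruits the abscission machinery, had ratios of 7.22 and 7.44. Dlgap5 (HURP), which stabilizes spindle fibres, had 6.81 and 6.57. Ccnf, the cyclin F subunit of a ubiquitin ligase, had 6.01 and 6.31, Kifc1, a minus-end kinesin, 6.23 and 5.87, Spag5 (astrin) of the spindle 5.71 and 6.02, Kntc1 of the outer kinetochore 5.27 and 5.35, and Shcbp1, a midbody protein, 5.13 and 5.57. The non-coding genes Gm14091 (7.04 and 7.70) and Gm47207 (5.29 and 5.53) completed the set.

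Lower genes were fewer, and 13 of the 43 were also at least 2-fold below the other nuclei of the same clusters. Bmp4, a ligand made by the lateral epithelium, had 1 UMI in Serpine2 cOE and 3 in control and ratios of -3.92 and -2.08, which became -2.54 and -1.20 against the same clusters. Bmp6, a related ligand, had ratios of -1.56 and -1.97, and -1.48 and -0.39 against the same clusters. Mylk, the myosin light chain kinase of contractile cells, had -2.34 and -1.84, Abi3bp, a matrix protein, -2.14 and -1.81, Smarca1, a chromatin remodeller, -1.51 and -1.78, and Sptlc3 of sphingolipid synthesis -2.10 and -1.42. Cep41, a centrosomal protein, had -1.89 and -3.44, with its 5 UMIs of Serpine2 cOE in 1 nucleus. Snhg11, a non-coding gene that led the neuron-like cluster, had -4.10 and -2.49, and 6330411D24Rik had 2 UMIs in Serpine2 cOE (-2.83) and 0 in control.

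To ask which cell types the dividing nuclei belonged to, all filtered nuclei were clustered without the gate genes and the cell cycle lists. The 25 clusters were named from 19 marker lists. Cell cycle genes outside the lists, such as Troap and Cep55, were not left out, so clusters can in part follow the cell cycle. Mesenchymal-like clusters held 22 of the 74 dividing nuclei (29.7%, 19.7 to 41.5), 9 in Serpine2 cOE and 13 in control, against 34.5% of the other nuclei. Macrophage-like nuclei held 12 (16.2%), 6 in each library, roof epithelium-like nuclei 9 (2 and 7), hair cell-like nuclei 5 (4 and 1), medial epithelium-like nuclei 3 (2 and 1) and supporting cell-like nuclei 2 (2 and 0). Clusters without a name held the remaining 21 (7 and 14). Of the other nuclei, 1.89% were macrophage-like, 6.90% roof epithelium-like, 3.66% hair cell-like, 10.4% medial epithelium-like, 2.35% supporting cell-like and 37.1% unnamed. None were found among 558 lateral epithelium-like nuclei, which allows a share of up to 0.538%, or among 50 neuron-like nuclei, which allows up to 6%. Taking each nucleus by its own markers instead, 39 of the 74 (52.7%) carried at least 2 mesenchymal markers and more than of any other list, against 53.1% of the other nuclei. This call makes no allowance for list length or depth, and the mesenchymal list is the longest. Its members Col1a2 and Tbx18 were in 42.6% and 37.8% of other nuclei outside the mesenchymal-like class.

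The macrophage-like cluster had the highest share of dividing nuclei among the named classes, 12 of 373 (3.22%, 1.67 to 5.55), while its median depth of 1736 UMIs was the lowest of them. In Serpine2 cOE 6 of 157 (3.82%, 1.42 to 8.13) were dividing and in control 6 of 216 (2.78%, 1.03 to 5.95), and the ratio had an interval of 0.368 to 5.15. With each nucleus thinned to 1000 UMIs the shares were 4 of 144 (2.78%) and 3 of 192 (1.56%), against 1 of 431 and 0 of 272 in hair cell-like nuclei, a type that should not divide. The dividing macrophage-like nuclei held a median of 19 mitosis genes at a median of 2274 UMIs. None was among the highest doublet scores, which marked 74 of the other 361 macrophage-like nuclei. By their own markers 8 of the 12 were macrophage-like (5 and 3), 1 was mesenchymal-like, 1 osteoblast or chondrocyte-like and 2 unassigned. Csf1r, the receptor for macrophage growth factors, was in 8 of the 12, against 2 of the other 62 dividing nuclei. Cx3cr1, the fractalkine receptor, was in 8 of 12, against 7 of those 62. The other macrophage markers were in fewer. Adgre1, Fcrls and Mrc1 were in 5 of 12 each, against 0, 0 and 5 of those 62. C1qa, C1qb and P2ry12 were in 4 of 12 each, against 5, 1 and 10, and Cd68 was in 1, against 1.

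Within that class the dividing nuclei had less Mrc1, the mannose receptor of resident macrophages. It was detected in 5 of 12 dividing nuclei, against 77.0% of the other 361 macrophage-like nuclei, with a log2 ratio of levels of -1.56 (-2.32 to -0.90). The ratio was -1.96 (-3.17 to -0.97) in Serpine2 cOE and -1.12 (-2.18 to -0.23) in control. Csf1r was at 0.65 (-0.10 to 1.32), Cx3cr1 at 0.69 (-0.21 to 1.46) and the complement gene C1qa at -0.64 (-1.65 to 0.21). Of the macrophage markers examined, Mrc1 was the single one whose interval left out 0 in both libraries. The class was clustered with Mrc1 among its genes, and 4 of the 12 nuclei were not macrophage-like by their own markers, so this is a description.

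Dividing mesenchymal-like nuclei were concentrated in 1 cluster. Cluster 12, led by the collagen Col6a6 and by Aldh1a2, which makes retinoic acid, held 18 of them among 3188 nuclei (0.565%, 0.335 to 0.891), 8 of 1635 in Serpine2 cOE and 10 of 1553 in control. Cluster 9, led by the Wnt inhibitors Notum and Nkd1, held 0 of 1517, which allows up to 0.198%, at a median depth of 2002 UMIs against 2291 in cluster 12. At the finer resolution of 2 these nuclei fell into separate clusters. One led by Kcnip1 and Aldh1a2 held 16 dividing of 806 nuclei, and another led by Grin2b, Tnxb and Col6a6 held 0 of 2054. Cell cycle genes outside the lists were not left out of this clustering. At the main resolution, low-depth cluster 10 held 3 of 1136 and cluster 20 held 1 of 755. The 22 dividing nuclei carried a median of 22 mitosis genes. None was among the highest doublet scores, which marked 247 of the other 6574 mesenchymal-like nuclei.

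Marker ratios within the mesenchymal-like class restate cluster membership in part, since cluster 12 was named from Tbx18, Col3a1, Col6a3 and Dcn, and clusters 9 and 20 from Emilin2, Notum and Nkd1 among others. They are a description. Tbx18, a transcription factor of otic mesenchyme, was in 19 of the 22 dividing nuclei, with a ratio over the other mesenchymal-like nuclei of 0.57 (0.22 to 0.91). Notum was in 3 of 22, with a ratio of -3.30 (-5.58 to -1.76), Emilin2, an elastic fibre protein, in 7 (-2.46, -3.46 to -1.62), and Nkd1 in 13 (-1.34, -2.01 to -0.74). Lum (-1.56) and Col1a2 (-1.12), matrix genes of fibroblasts, were also lower, while Col3a1 (-0.15, -0.77 to 0.40) and Dcn (0.26, -0.32 to 0.78) were not. For Notum the ratio was -3.93 in Serpine2 cOE and -2.73 in control, from 1 and 2 UMIs. Slc1a3, listed as a supporting cell marker, was in 21 of the 22. It was also in 69.1% of all other nuclei outside the supporting cell-like class, so it did not mark supporting cells here. In cluster 12 it was in 96.0% of nuclei, at a level 3.39-fold that of the nuclei outside the cluster.

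Roof epithelium-like nuclei, with Otx2, Dach2 and Lmx1a of the developing cochlear roof, included 2 dividing of 833 in Serpine2 cOE (0.240%, 0.0291 to 0.865) and 7 of 490 in control (1.43%, 0.576 to 2.92). The log2 ratio of shares was -2.57 (-5.88 to -0.18), and thinned to 1000 UMIs the counts were 1 of 833 and 4 of 490 (-2.77, -8.39 to 0.57). All 9 lay in cluster 3. By their own markers neither of the 2 in Serpine2 cOE was roof epithelium-like (1 mesenchymal-like, 1 unassigned), and in control 5 of the 7 were and 2 were mesenchymal-like. Dach2 was in 9 of 9 and Lmx1a in 8 of 9, against 10 and 9 of the other 65 dividing nuclei. Oc90, an otoconial matrix protein, was lower in the dividing than in the other roof epithelium-like nuclei (-1.52, -2.53 to -0.68). Mitosis genes numbered 34 and 37 in the 2 nuclei of Serpine2 cOE and 4 to 51 in the 7 of control. Among the 9, 3 had high doublet scores, 1 of 2 in Serpine2 cOE and 2 of 7 in control. Such scores marked 241 of the other 1314 roof epithelium-like nuclei. The part of doublets in the difference between the libraries was not tested.

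Hair cells are not expected to divide, and the 5 hair cell-like nuclei that met the gate were deep, at a median of 9242 UMIs against 5778 in the other 698. Their share, 5 of 703 (0.711%, 0.231 to 1.65), was above that of mesenchymal-like nuclei (0.334%, 0.209 to 0.505). Depths were unlike, at medians of 5794 UMIs in all hair cell-like and 2089 in all mesenchymal-like nuclei. Without thinning, the gate alone therefore does not set the mesenchymal share above this background. Of the 4 in Serpine2 cOE, 1 with 6358 UMIs held 3 mitosis genes and 1 with 9242 UMIs held 4. The other 2, with 8434 and 10544 UMIs, held 22 and 27, were both among the highest doublet scores, and were not hair cell-like by their own markers. The control nucleus, with 11454 UMIs, held 10 mitosis genes. The 698 hair cell-like nuclei outside the gate held a median of 2 and at most 11, and 103 of them had high doublet scores. Ptprq, Otof and Myo3a, genes of the hair bundle and the ribbon synapse, were in 5 of 5. Cdh23, Tmc1 and Loxhd1 were in 4 each, Slc26a5 in 2, and Myo7a and Gfi1 in 1 each. Pou4f3, the hair cell transcription factor, was in 0 of 5, against 26.2% of the other hair cell-like nuclei. Of the mesenchymal markers, Col1a2, Notum and Nkd1 were in 3 each, and Col1a1, Col3a1, Dcn, Lum and Emilin2 in 2 each. Tbx18 was in 1, and Pou3f4, Col6a3 and Postn in 0. Outside the mesenchymal-like class, Col1a2, Notum and Nkd1 were in 42.6%, 15.1% and 25.7% of the other nuclei. Thinned to 2000 UMIs, 0 of 430 in Serpine2 cOE and 0 of 271 in control met the gate, which allows up to 0.698% and 1.11%. Mesenchymal-like nuclei thinned likewise met it in 5 of 1884 (0.265%) and 7 of 1669 (0.419%), within those limits. Thinned to 1000 UMIs, 3 of 3136 and 4 of 2778 mesenchymal-like nuclei met it, against 1 of 431 and 0 of 272 hair cell-like nuclei.

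Supporting cells were of interest because the driver acts in Lgr5 cells. The dividing nuclei in a supporting cell-like cluster were 2 of 303 in Serpine2 cOE (0.660%, 0.0800 to 2.36) and 0 of 147 in control, which allows up to 2.04%. They had 7392 and 7424 UMIs and held 15 and 17 mitosis genes. The nucleus with 7392 UMIs had a high doublet score, as had 52 of the other 448 supporting cell-like nuclei. Of the supporting cell markers, Gjb2 and Slc1a3 were in both, and Prox1, Fgfr3, Hey2 and Emid1 were each in 1. Sox2, Lfng and Fabp7 were in neither, against 16.3%, 39.5% and 22.8% of the other supporting cell-like nuclei. Col1a2, a mesenchymal marker found in 42.6% of other nuclei outside the mesenchymal-like class, was in both. Of the other mesenchymal markers, Col3a1, Dcn, Lum, Emilin2, Notum and Nkd1 were each in 1. Pou3f4, Tbx18, Col1a1, Col6a3 and Postn were in neither. By its own markers, neither nucleus was assigned to supporting cells. With 2 nuclei against an upper limit of 2.04% in control, a difference between the libraries was not detectable at this depth.

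The 3 medial epithelium-like nuclei were 2 of 1403 in Serpine2 cOE and 1 of 577 in control. They lay in cluster 15. The medial markers Tectb, Tecta, Epyc and Ano1 were each in 2 of the 3, Otog, Otoa and Calb1 each in 1, and Otogl in 0. Tectb was also in 38 of the other 71 dividing nuclei. Of the mesenchymal markers, Dcn and Lum were in all 3, Col1a2 and Emilin2 in 2 each, and Postn in 0. Tbx18, Notum, Nkd1, Col1a1, Pou3f4, Col3a1 and Col6a3 were each in 1. By their own markers 2 were mesenchymal-like and 1 was unassigned, so the medial name rests on their cluster. Cluster 14, led by Ano1 of the Koelliker organ among others, held 0 of 990.

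**Figure D4:**
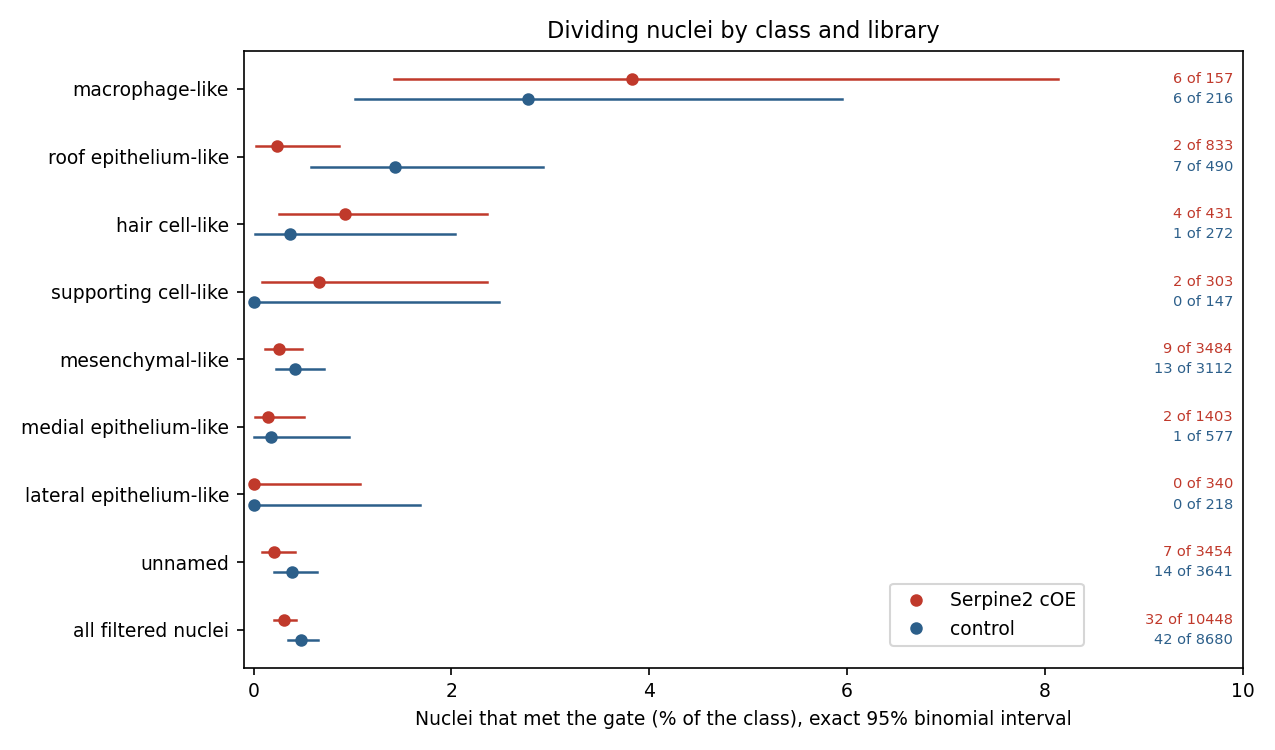
Percentage of each class that met the gate, with Serpine2 cOE above control, points for the share and lines for exact 95% binomial intervals, and the counts at the right. Macrophage-like nuclei stand highest at 3.82% and 2.78%, and the roof epithelium-like shares are 0.240% and 1.43%.

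Unnamed clusters held 21 dividing nuclei among 7095. Cluster 16, whose leading genes include Runx2 of bone-forming cells and the deiodinase Dio2, held 6 of 896 (0.670%), 2 of 511 in Serpine2 cOE and 4 of 385 in control. Cluster 13, led by Gas2l3 and Tnfaip6, held 4 of 1272, and cluster 8, led by Opcml and Moxd1, held 2 of 2635 (0.0759%). Cluster 5, a low-depth cluster led by Actb and Kdelr2, held 1 of 78 in Serpine2 cOE and 5 of 704 in control, so that library made up most of it. Of the mesenchymal markers, Tbx18 was in 16 of the 21 and Col1a2 in 15, against 37.8% and 42.6% of the other nuclei outside the mesenchymal-like class. Emilin2 was in 12, Col3a1 and Nkd1 in 8 each, Dcn and Lum in 7 each, Pou3f4 in 6, Notum in 4, Col1a1 in 2, and Col6a3 and Postn in 1 each.

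A stricter reading was added after the values had been seen. Among dividing nuclei, 52 of 74 held at least 12 mitosis genes, more than any hair cell-like nucleus outside the gate, against 5 of the other 19054 nuclei, 4 of them mesenchymal-like. They were 25 in Serpine2 cOE (0.239% of nuclei) and 27 in control (0.311%). By class they were 19 of 22 mesenchymal-like, 11 of 12 macrophage-like, 6 of 9 roof epithelium-like, 10 of 21 unnamed, 2 of 5 hair cell-like, 2 of 3 medial epithelium-like and 2 of 2 supporting cell-like nuclei. High doublet scores marked both hair cell-like nuclei, 1 of 2 in each of the medial epithelium-like and supporting cell-like classes, 1 of the 6 roof epithelium-like and 2 of the 10 unnamed nuclei, but none of the 19 mesenchymal-like or 11 macrophage-like nuclei. Outside the gate they marked 247 of 6574 mesenchymal-like, 74 of 361 macrophage-like, 301 of 1977 medial epithelium-like and 437 of 7074 unnamed nuclei. The macrophage-like share was then 2.95% (1.48 to 5.22), the mesenchymal-like share 0.288% (0.174 to 0.449) and the hair cell-like share 0.284% (0.0345 to 1.02). This reading does not set the mesenchymal-like share above the hair cell-like one either. The hair cell-like share rests on 2 nuclei, both with high doublet scores and neither hair cell-like by its own markers. Depth was not matched between the classes in this reading.

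**Figure D5:**
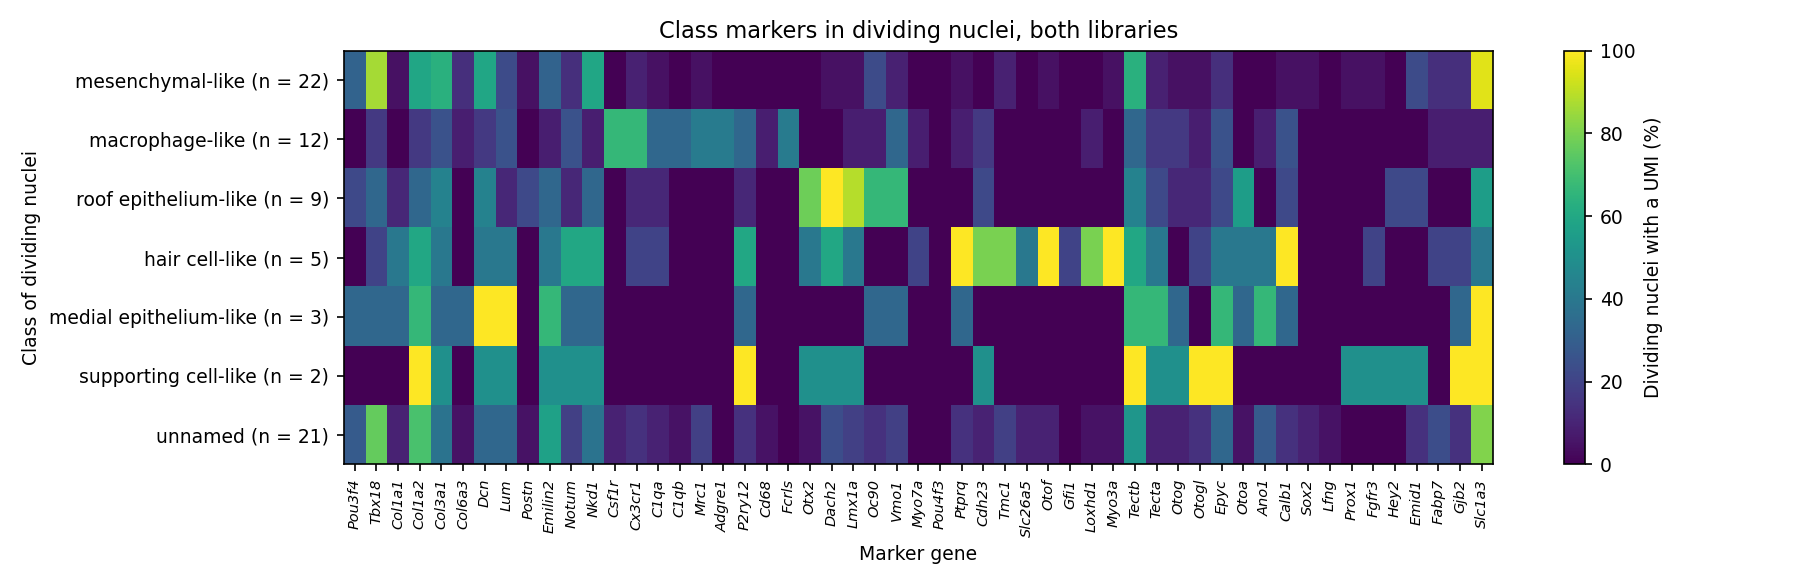
Percentage of the dividing nuclei of each class (rows, both libraries together) in which each class marker (columns) was detected, from 0 in dark blue to 100% in yellow. Macrophage-like nuclei stand out at Csf1r and Cx3cr1 (8 of 12 each) and roof epithelium-like nuclei at Dach2 (9 of 9), whereas Tectb and Slc1a3 are spread over most classes.

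The libraries, which differ by the driver allele and share the Serpine2loxp alleles, were compared for their share of dividing nuclei. Dividing nuclei made up 0.306% (0.210 to 0.432) of Serpine2 cOE nuclei and 0.484% (0.349 to 0.653) of control nuclei. The ratio of these shares was 0.633 (0.387 to 1.03), so the interval included no difference. It left out no difference with at least 2 gate genes (0.760, 0.593 to 0.972) and among nuclei with at least 1000 genes (0.586, 0.357 to 0.953). By depth, 1 of 1537 in Serpine2 cOE and 4 of 1996 in control were dividing between 500 and 1499 UMIs, 5 of 5225 and 14 of 4124 between 1500 and 2999 (ratio 0.282, 0.0795 to 0.828), 13 of 2819 and 16 of 1945 between 3000 and 5999, and 13 of 867 (1.50%) and 8 of 615 (1.30%) between 6000 and 12000. The share was thus lower in Serpine2 cOE in the 3 shallower windows and slightly higher in the deepest, where it was also largest in each library. Apart from the window of 1500 to 2999 UMIs, the intervals of the ratio included no difference (0.00659 to 3.28, 0.248 to 1.24 and 0.443 to 3.21). Thinned to 1000 UMIs the shares were 0.0900% and 0.205%, a ratio of 0.438 (0.171 to 1.05). High doublet scores marked 6 of the 32 dividing nuclei in Serpine2 cOE and 3 of the 42 in control. Over all filtered nuclei they marked 917 of 10448 in Serpine2 cOE and 661 of 8680 in control. Without the nuclei so marked the ratio was 0.561 (0.328 to 0.945), and with at least 12 mitosis genes it was 0.769 (0.428 to 1.38). Barcodes above 12000 UMIs, left out here, met the gate in 34 of 369 (9.21%) and 34 of 273 (12.5%).

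Dividing nuclei of the libraries also differed in gene levels. Of 4392 genes with at least 20 UMIs in the dividing nuclei together, 292 (6.65%) were at least 2-fold higher in Serpine2 cOE and 271 (6.17%) at least 2-fold lower. Among mitosis genes none of 38 was higher and 12 were lower, and among S phase genes none of 12 was higher and 5 were lower, with median log2 ratios of Serpine2 cOE over control of -0.69 and -0.94, against -0.01 over all genes. In repair genes the counts were 0 higher and 2 lower of 7. Pola1 (-1.36, -2.03 to -0.72), Hmgb2 (-1.37, -1.98 to -0.78) and Diaph3 (-1.07, -1.60 to -0.55) were among those lower. Depth and class moved with this difference. Between 1500 and 2999 UMIs the mitosis list summed to 9042 CPM in Serpine2 cOE and 9281 CPM in control, and between 3000 and 5999 UMIs to 8115 and 9402 CPM. Between 6000 and 12000 UMIs the sums were 2959 and 5474 CPM, and 46.5% of those control UMIs came from 1 nucleus. Between 500 and 1499 UMIs the order was the other way, with 14992.5 CPM in 1 nucleus and 7326 CPM in 4. By class, mesenchymal-like dividing nuclei had 7498 and 8448 CPM, roof epithelium-like 9891 and 11071, macrophage-like 8743 and 13091, and unnamed 2719 and 5652. Nuclei with 4 or more gate genes had 6328 CPM in Serpine2 cOE and 10760.4 CPM in control. The part of depth and class in the whole difference was not tested.

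For the genes outside the lists named here, most of the control UMIs came from few nuclei or from 1 class or group of clusters. Stim2, a calcium sensor of the endoplasmic reticulum, had 52 UMIs in Serpine2 cOE and 162 in control (-1.80, -2.28 to -1.34), and 143 of the 162 were in the 7 roof epithelium-like nuclei. Mecom, a transcription factor, had 5 and 33 UMIs (-2.88), with 32 of the 33 in those nuclei, and Col8a1, a short-chain collagen, 8 and 42 (-2.55), with 26 of the 42 there. Kcnip4, a potassium channel subunit, had 12 and 82 (-2.93), of which 69 were in 2 roof epithelium-like nuclei of control, and Dlgap1, a synaptic scaffold, 29 and 99 (-1.93), with 52 in that class. Opcml, an adhesion molecule that led cluster 8, had 18 and 97 (-2.59), and 88 of the 97 were in unnamed clusters.

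Higher in Serpine2 cOE were Nckap5, with 175 UMIs against 23 in control (2.77, 2.14 to 3.46), of which 97 were in 1 nucleus, and Ano1, a chloride channel of the Koelliker organ, with 45 against 3 (3.75, 2.11 to 6.08), of which 22 were in 2 hair cell-like nuclei. Igf1, a growth factor, had 65 against 8 (2.86, 1.80 to 4.14), in 14 and 7 nuclei, with 21 of the 65 in 1 nucleus, 17 UMIs in the roof epithelium-like nuclei and 24 in unnamed clusters of Serpine2 cOE. Ccdc148 had 39 against 2 (4.13), with 14 of the 39 in 1 nucleus, Gm45904 47 against 2 (4.40), and Gm49890 41 against 4 (3.20), of which 22 were in 1 nucleus. Roof epithelium-like nuclei numbered 2 and 7 and hair cell-like nuclei 4 and 1 among the dividing nuclei of the libraries, and the part of this make-up in these values was not tested.

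Serpine2 itself, a secreted inhibitor of thrombin and plasminogen activators, had 12 UMIs in 8 dividing nuclei of Serpine2 cOE and 18 in 13 of control, a log2 ratio of -0.74 (-1.93 to 0.39). Against the other nuclei its ratios were -0.41 (-1.36 to 0.40) and 0.22 (-0.54 to 0.88). Lgr5 had 16 UMIs in 9 dividing nuclei of Serpine2 cOE and 4 in 2 of control, a ratio of 1.84 (0.21 to 3.88). Of these, 9 of 16 in Serpine2 cOE and 3 of 4 in control lay in the hair cell-like nuclei, and 2 in the supporting cell-like nuclei of Serpine2 cOE. Whether transcripts of the recombined allele are among these UMI counts is not given in the sources used here. Sox2, a factor of supporting cells, had 1 and 2 UMIs.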

How the data were processed

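The matrices deposited by the authors hold raw counts (UMIs of a gene in a barcode) from Cell Ranger 8.0.1, per the file headers. Per the submitters' processing notes STAR was used, in a version not given. The build is GRCm39 in the design text and mm10 in the notes. No coordinate from the matrices is printed here, and counts under another build were not analysed here. Ambient RNA correction is not given in the sources used here. Of other per-sample value columns there were 0.

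Nuclei of both libraries were clustered together in scanpy 1.11.5 (Python 3.11.15): counts scaled to 10000 per nucleus, log-transformed, 3000 variable genes without cell cycle genes, 50 principal components, 15 neighbours, Leiden resolution 1. A cluster name needed at least 3 markers, each in at least 10% of its nuclei and 2-fold above the others, and more than of any other list. The nucleus's own class needed at least 2 markers and more than of any other list, with no allowance for list length. Doublets were scored with Scrublet and kept. High scores are the top 0.8% of nuclei for every 1000 barcodes of the library. They marked 917 of 10448 filtered nuclei in Serpine2 cOE and 661 of 8680 in control. Summed UMIs of each library's nuclei were expressed as CPM. Binomial intervals are Clopper-Pearson, ratios use the conditional exact interval, a count of 0 allows 3 counts, and TMM factors came from edgeR 4.0.16. Scripts were tested on simulated data. Depth per library was 31657142 UMIs in Serpine2 cOE and 23983690 in control after filtering.

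Members, gene lists and marker lists were chosen with earlier results of these data known. Named genes were all gate genes; per cell cycle list the 4 with most and the 2 with fewest UMIs among those with at least 20; outside the lists the 10 highest and 10 lowest by the smaller ratio, in at least 10 dividing nuclei where they were higher; and the 6 most different in each direction between libraries; with Serpine2, Lgr5, Sox2, cyclins and inhibitors always.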

Additional observations from a re-analysis of the deposited data

Results flagged for a closer look

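Several genes stood above the rest of their library in the dividing nuclei of 1 library and below it in those of the other. The difference between the libraries was not tested, since each group was 1 library. Log2 ratios of dividing nuclei over the rest were 0.88 in Serpine2 cOE and -3.10 in control for Ccdc148, 0.58 and -1.99 for Igf1, and 0.60 and -2.27 for Gm49890. They were -0.89 and 2.38 for Kcnip4, -1.0 and 1.59 for Col8a1, -0.76 and 1.30 for Stim2, and -1.28 and 0.88 for Dlgap1. Against the other nuclei of the same clusters the ratios were 1.14 and -1.69 for Ccdc148, 0.41 and -2.09 for Igf1, 0.03 and -0.09 for Gm49890, -0.57 and 1.71 for Kcnip4, -1.19 and 1.04 for Col8a1, -0.58 and 0.21 for Stim2, and -1.04 and 0.13 for Dlgap1. These genes were chosen for their difference between the libraries, so opposite signs are in part fixed by that choice.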

How the results depend on the processing

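Of 93 recomputed values that answer a comparison, 66 stayed within counting error of the reported one or within 1.5 times the reported count. The log2 ratio of shares stayed below 0 under each alternative run. The share was 1.23% in Serpine2 cOE and 1.61% in control with at least 2 gate genes, 0.0900% and 0.205% thinned to 1000 UMIs, and 0.610% and 0.849% with no highest UMI count. It was 0.187% in Serpine2 cOE thinned to 2000 UMIs, and in control 0.300% with at least 4 gate genes and 0.311% with more mitosis genes than other hair cell-like nuclei. Mesenchymal-like nuclei were 52.7% of dividing nuclei by their own markers, and hair cell-like nuclei 2.08% with at least 4 gate genes. Genes at least 2-fold higher in the lists were 3 (repair, at least 4 gate genes), 1 (DREAM and RB, at least 4 gate genes) and 1 (DREAM and RB, rest weighted to the same clusters); genes chosen by the rest alone gave 29 S phase, 13 repair and 1 exit gene. Over all genes, 349 were higher and 120 lower with at least 10 UMIs, and 44 and 14 with at least 50; weighting the rest to the same clusters gave 23 lower and weighting nuclei equally 67. Between the libraries, 4055 genes were higher and 3700 lower with no lowest UMI sum. In the window from 100 bases before the start, 8.01% of all promoters held TTTGAA and 23.4% CCAAT. Of 335 recomputed values of named genes, 322 stayed within counting error and 13 moved further.

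Leaving out a replicate was not possible with 1 library per group. No paired analysis was possible because the groups share only 1 replicate number.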
